A study of Mus musculus with 18 samples.

Results

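The Groucho co-repressors Tle1, Tle2, Tle3 and Tle4 are described here together with Tle6, a divergent member of the same gene family. The 5 genes were taken by symbol from the authors' deposited table of fibroblast RNA, which lists 35734 genes, of which 16757 have an adjusted p. The same 5 genes were then followed as windows (gene body with 2 kb on both sides) among 21887 windows of protein-coding genes in the chromatin of single retinal nuclei. The set was chosen with the fibroblast contrast known, Tle6 being among its largest falls, so the fibroblast values of the members are a description and carry no test of their own. The fibroblasts were C57BL/6 mouse embryonic fibroblasts of the R26-M2rtTA line, in which doxycycline switches on genes carried by lentiviral vectors. All of them received Brn2 and Myt1l, and the compared group also received Ikzf1 and Ikzf4, with 3 poly(A) RNA libraries per group taken at 48 h. Both groups are labelled with 2 days of doxycycline. The multiome libraries (chromatin accessibility of single nuclei) were 1 control carrying mCherry and 1 for Ikzf1/4. The control came from C57BL/6 retina of the GLAST-CRE ERT2 ; RosaYFP line and is labelled as Muller glia. The labels describe both multiome samples as given tamoxifen, with 14 days. Glast-driven Cre acts in Muller glia after tamoxifen. For the Ikzf1/4 library the labels give no tissue, line or strain beyond the title. The labels and the run names in the file headers give different times for both multiome libraries, so the time between treatment and sampling is not stated.

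Groucho proteins bind no DNA by themselves. They are brought to genes by DNA-binding repressors, among them Hes and Hey factors, Runx factors, Tcf and Lef factors and homeodomain proteins, and they recruit histone deacetylases such as Hdac1. In the nervous system Hes factors use them to hold back neuronal genes in progenitors and glia. Tle5 (also called Aes) is a short family member that lacks the WD repeats of the long ones and can counteract them. Tle6 keeps the WD repeats but lacks the conserved amino end through which the long members assemble, and it is best known from the egg, where it belongs to the subcortical maternal complex. Ikzf1 (Ikaros) and Ikzf4 (Eos) are zinc finger transcription factors of lymphocytes. Ikzf1 also acts in early retinal progenitors.

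Tle6 has a pair of annotated start sites 3533 bp apart on chromosome 10, both on the minus strand, and part of the retinal results below compares them. For that reason both promoters are shown, from 250 bases before to 50 bases after each start, as RefSeq gives them for GRCm38.p6. The upstream promoter lies at chr10:81600851-81601150 and the downstream one at chr10:81597318-81597617. Capitals mark TGGGAA, the core of the Ikaros motif, searched on both strands.
Tle6 upstream: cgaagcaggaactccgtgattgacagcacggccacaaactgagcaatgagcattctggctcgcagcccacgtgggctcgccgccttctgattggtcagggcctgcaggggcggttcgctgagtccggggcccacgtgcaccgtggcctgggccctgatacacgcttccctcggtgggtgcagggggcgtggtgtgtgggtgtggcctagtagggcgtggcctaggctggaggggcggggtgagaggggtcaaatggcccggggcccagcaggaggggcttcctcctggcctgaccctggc
Tle6 downstream: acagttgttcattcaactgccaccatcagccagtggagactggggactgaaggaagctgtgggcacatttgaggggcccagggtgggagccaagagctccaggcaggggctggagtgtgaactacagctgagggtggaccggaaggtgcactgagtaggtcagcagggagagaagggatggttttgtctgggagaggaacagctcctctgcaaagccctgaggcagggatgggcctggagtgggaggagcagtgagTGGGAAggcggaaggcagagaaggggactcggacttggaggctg
The upstream promoter of Tle6 held 68% G and C and 18 CpG, a CpG content of 0.53 of that expected from its bases. The downstream promoter held 60% G and C but only 3 CpG, 0.13 of expectation. Over the 32851 promoters of the RefSeq table the medians were 52.7% and 0.38. The downstream Tle6 promoter therefore stood below that median in CpG content and the upstream one above it. TGGGAA occurred once in the downstream promoter, 6 bases after the start, and not in the upstream one. It occurred in 25.6% of all promoters, so a match is common and is a description only. The octamer ATGCAAAT (1.74% of promoters) and the Myt1 family motif AAAGTTT (4.74%), searched in the same way, occurred in none of the 7 promoters of the 5 members.

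The promoters of the other members were rich in CpG. Those of Tle1, Tle2 and Tle3, each with 1 annotated start, held 73.7%, 64.7% and 53.7% G and C, with CpG at 1.003, 0.89 and 0.98 of expectation. Tle4, with starts 970 bp apart, held 65% and 73% with CpG at 0.88 and 1.10 of expectation. By this measure the downstream Tle6 promoter was the most CpG-poor of the 7.

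In genome order on GRCm38.p6, Tle1 spans chromosome 4 from 72109945 to 72200989 and Tle3 chromosome 9 from 61372326 to 61418497. Tle4 spans chromosome 19 from 14448072 to 14598183. Tle5, Tle2 and Tle6 lie side by side on chromosome 10. Tle5 runs from 81559444 to 81566371, and Tle2, on the plus strand, follows after a gap of 8367 bp and runs from 81574739 to 81592581. Tle6 runs from 81590904 to 81601185 on the minus strand, so the 3′ ends of Tle2 and Tle6 overlap by 1678 bp. The noncoding gene Gm32024, from 81594565 to 81599370, lies inside the Tle6 span. Without strand, reads from the overlap cannot be given to 1 of these genes, and no source used here says whether the authors' quantification used strand.

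In the fibroblasts Tle6 fell with Ikzf1 and Ikzf4 while Tle1, Tle3 and Tle4 rose. In the authors' deposited table the log2 fold change of Tle6, with over without Ikzf1 and Ikzf4, was -2.02 (SE 0.17), which is 4.05-fold lower. From its mean normalised signal of 227.6 and its fold change, the authors' deposited table implies a level of 365 without and 90.1 with Ikzf1 and Ikzf4. It was the 6th lowest fold change of the 16757 genes in the authors' deposited table. Tle2, its neighbour, also fell in the authors' deposited table, by 0.70 on the log2 scale (SE 0.15), with an implied level of 669 without and 412 with Ikzf1 and Ikzf4. Values of single libraries are not analysed here, so whether groups overlap was not examined.

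The remaining long members moved the other way, by less. In the authors' deposited table Tle4 had a log2 fold change of 0.50 (SE 0.07), an implied level of 1003 without and 1418 with Ikzf1 and Ikzf4. Tle1 had 0.34 (SE 0.09) in the authors' deposited table, an implied level of 1940 without and 2453 with the added factors. Tle3 had 0.20 (SE 0.07) in the authors' deposited table, an implied level of 2949 without and 3378 with. Tle5, the short member, had 0.12 (SE 0.05) in the authors' deposited table and an adjusted p of 0.0534, over the 0.05 used for calls. The adjusted p of Tle3 in the authors' deposited table was 0.0144, so with 0.01 as the threshold 4 of the 5 members pass. The signals are not scaled to length and are not compared between genes.

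All 5 members, 3 higher and 2 lower, had an adjusted p under 0.05 in the authors' deposited table, where 30.6% of all tested genes did, 15.3% higher and 15.4% lower. Since the members were chosen on this contrast, nothing is read from that count. Tle6 alone also passed an absolute log2 fold change of 1, as did 2.15% of genes in the authors' deposited table. The median log2 fold change of all tested genes in that deposited table of the authors was 0.00 and the median absolute value 0.15. Tle3 and Tle5 were thus near the typical size of change, and Tle6 far from it.

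**Figure D1:**
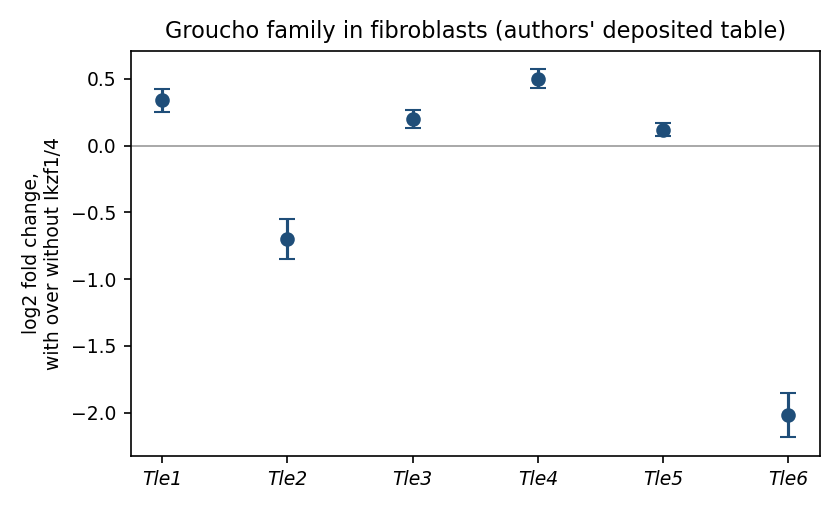
Log2 fold change of the Groucho family in fibroblasts, with over without Ikzf1 and Ikzf4, from the authors' deposited table of 3 against 3 libraries; points are the fold changes and bars 1 standard error. Tle6 (-2.02) and Tle2 (-0.70) lie below 0, and Tle4 (0.50), Tle1 (0.34), Tle3 (0.20) and Tle5 (0.12) above it.

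The proteins that act with Groucho were called about as often as other genes. Of 38 listed partners, 31 had an adjusted p in the authors' deposited table, and 8 of these were called, 7 of them higher, with a median log2 fold change of 0.04. In the authors' deposited table the share called was 30.6% of all tested genes, 15.3% higher and 15.4% lower, so nothing is read from the count. Among the Hes and Hey repressors, Hey1 was the 1 of 6 called in the authors' deposited table, at 0.80 (SE 0.16). Hes1, the Notch target that acts with Groucho in neural progenitors, was at -0.20 (SE 0.10) in the authors' deposited table and was not called. Of 3 Runx genes, Runx2, the master regulator of bone cells, was called at 0.78 (SE 0.12) in the authors' deposited table. None of the 4 Tcf and Lef genes, which carry Wnt signals, was called in the authors' deposited table. Among 12 other DNA-binding partners, 4 were higher in the authors' deposited table. The pioneer factor Foxa1 stood at 1.92 (SE 0.19), the germinal centre repressor Bcl6 at 0.78 (SE 0.10) and the homeobox gene En1 at 0.29 (SE 0.08), all from the authors' deposited table. Pax2 was also called in the authors' deposited table, at a mean signal of only 6.66. Of 6 deacetylase and co-repressor genes only the scaffold Sin3a, at 0.28 (SE 0.06), was called in the authors' deposited table, and Hdac1 was at 0.10 (SE 0.06).

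Of 7 members of the subcortical maternal complex, only 3 had an adjusted p in the authors' deposited table and 0 of these were called, too few to set against the 30.6% of all genes. Fibroblast markers moved at the same time. Of 10, 7 were lower in the authors' deposited table, where 15.4% of all tested genes were, and the median of the list was -0.38. The largest falls were those of the collagen gene Col3a1 at -1.29 (SE 0.06) and the proteoglycan gene Dcn at -1.77 (SE 0.08). Fn1 (0.14), Pdgfra (0.03) and Lum (-0.23) were not called in the authors' deposited table. Of 6 tested markers of other cell types in such cultures, only Epcam was called in the authors' deposited table, at 0.64 with a mean signal of 41.0. In bulk libraries fewer cells of a type and less RNA per cell cannot be told apart, and the part of this shift in the members' values was not tested.

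Genes next to Tle6 did not share the size of its fall. Counting the nearest listed genes on either side of each member, 13 that are no members had an adjusted p in the authors' deposited table, and 1 was higher and 3 lower, a share near the 30.6% of all tested genes. Around Tle6 the G protein gene Gna11 was at -0.19 (SE 0.06, adjusted p 0.00613) and Ankrd24 at -0.51 (SE 0.11, adjusted p 8.29e-05) in the authors' deposited table. Sirt6, a deacetylase gene nearer to Tle6 than either, was at 0.00 (SE 0.11) in the authors' deposited table, and BC025920, the nearest gene beyond the Tle6 start, was at -0.31 (SE 0.22), not called.

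The retinal chromatin was not used to choose the members. The control library held 1883 cells with a median of 6245 unique fragments, and the Ikzf1/4 library 698 cells with a median of 11034; 3 cell barcodes were found in both. Nuclei were clustered without the windows of the family, and clusters were named from fixed marker lists. The nuclei were not only Muller glia. Clusters 1 and 3 were Muller glia-like (632 control and 130 Ikzf1/4 cells), 0 and 4 bipolar-like (651 and 242), 2 cone-like (260 and 134), 5 rod-like (96 and 130), 6 microglia-like (104 and 18) and 8 amacrine-like (69 and 1). Cluster 7, with 71 and 43 cells of high depth, stayed unnamed. Bipolar-like cluster 0, with 538 of the 651 control bipolar-like cells, had no bipolar marker among its 10 leading genes and 6 of 10 bipolar markers raised. The median log2 fold of its marker list, 0.89, was the lowest of the named clusters, against 1.95 in cluster 4. In cluster 3 no Muller marker but 1 amacrine marker (Pax6) was among the 10 leading genes, although 12 of 12 Muller markers were raised, so Muller glia-like cells are compared between libraries by cluster number. With 1 library per group there is no test between libraries, and all intervals are 95% and cover counting error only. Levels are fragments of the window per 1000000 fragments of the same cells (CPM), divided by the window's length in kb. Ratios of a class to all other cells are read within a library only. The mix of other cells differed between libraries, with rod-like cells 96 of 1883 and 130 of 698. The classes set beside each other for each member were chosen after their values were seen.

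Over its window Tle3 was highest in Muller glia-like nuclei. Its control level was 4.56 in cluster 1 and 5.94 in cluster 3, and 1.26 in rod-like cells, with every other cluster between 2.20 and 3.02. With Ikzf1/4 it was 5.80 and 5.85 in the Muller glia-like clusters, 1.11 in rod-like cells and 2.35 to 2.85 in the remaining ones. Over the window the intervals of the Muller glia-like clusters did not overlap those of any other cluster in either library. Near the start the lead was less clear. Within 500 bp of it control Muller glia-like cells had 44.4 CPM (38.1 to 51.5). Microglia-like (22.0 to 45.0) and amacrine-like cells (14.0 to 41.3) overlapped them. With Ikzf1/4 they had 54.6 CPM (42.5 to 69.1) there, overlapping microglia-like (55.0, 30.1 to 92.3) and cone-like cells (34.9, 26.4 to 45.2). Bipolar-like intervals lay lower in both libraries. Muller glia-like cells exceeded all other cells of their library 1.86-fold (1.71 to 2.02) in the control and 2.46-fold (2.18 to 2.78) in the Ikzf1/4 library, where the median of 11286 windows was 0.83 in both. The ratio of Tle3 was higher than that of 95.4% and 97.1% of these windows. Rod-like cells stood at 0.37 (0.26 to 0.51) and 0.36 (0.28 to 0.45) of the rest.

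Over its window Tle1 followed Tle3 in most clusters. Its control level was highest in Muller glia-like cluster 3 (2.04), cone-like (1.99) and Muller glia-like cluster 1 (1.69) cells and lowest in rod-like cells (0.54). Clusters 3 and 2 did not differ beyond their intervals. The interval of cluster 1 (1.54 to 1.86) also overlapped those of amacrine-like cells (1.15 to 1.79) and bipolar-like cluster 4 (1.02 to 1.56). Cluster 3 of the Ikzf1/4 library led at 2.61, followed by cluster 1 (1.83, 1.52 to 2.19). The cluster 1 interval overlapped that of bipolar-like cluster 4 (1.39 to 1.83), the next highest. It also overlapped those of cone-like (1.41, 1.23 to 1.61) and microglia-like cells (0.67 to 1.53). Rod-like cells were again lowest at 0.68 (0.54 to 0.84), overlapping cluster 7 (0.78 to 1.05) and microglia-like cells. Muller glia-like cells exceeded all other cells of their library 1.29-fold (1.17 to 1.42) in the control and 1.93-fold (1.68 to 2.22) in the Ikzf1/4 library. These were above 88.3% and 94.7% of windows. Within clusters 1 and 3 the Tle1 ratio of Ikzf1/4 to control was 1.08 (0.88 to 1.33) and 1.28 (1.03 to 1.58). Rod-like cells stood at 0.35 (0.23 to 0.50) and 0.50 (0.39 to 0.62) of the rest. Across the 17 combinations of cluster and library with at least 10 cells, which share libraries and depth, the log2 levels of Tle1 and Tle3 had a Pearson r of 0.88. This was the closest match to Tle1 among windows over 1 Mb away on the same chromosome or on others.

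Tle4 had another order, with photoreceptors at the top. Its control level was highest in rod-like (1.83) and cone-like (1.59) cells, whose intervals overlapped, and 0.93 to 1.21 in the other clusters. With Ikzf1/4 cone-like and rod-like cells were at 1.70 and 1.69, and the others at 0.76 to 1.10. Rod-like cells exceeded the rest 1.59-fold (1.35 to 1.87) in the control and 1.602-fold (1.42 to 1.81) in the Ikzf1/4 library, against a median of 1.22 and 1.25 over all windows, and 80.2% and 82.2% of windows had a lower ratio. Against that background the rod-like excess of Tle4 was modest. Its cone-like excess was 1.45-fold (1.32 to 1.59) and 1.66-fold (1.48 to 1.85), higher than in 80.6% and 94.4% of windows. Bipolar-like cells were at 0.78 (0.71 to 0.86) and 0.61 (0.55 to 0.69) of the rest. With cells of at least 10000 fragments the control value was 0.88 (0.73 to 1.06), an interval that held 1. Most Tle4 fragments near a start lay at the upstream one, with 1498 within 500 bp in the control against 132 at the downstream one. At that upstream start the control level was 172 CPM (140 to 209) in rod-like cells and 109 CPM (99.5 to 119.8) in bipolar-like cells. Cone-like cells had 125.5 CPM (111 to 141) there, which overlapped bipolar-like, Muller glia-like and amacrine-like cells. The correlations of Tle4 with the other members over the 17 points were all below 0, from -0.22 with Tle6 to -0.48 with Tle2.

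Tle2 and Tle6, the neighbours that fell in fibroblasts, were both highest over their windows in bipolar-like cells. For control Tle2 the lead over microglia-like cells did not hold without the stretch shared with Tle6. Tle6 had control levels of 4.59 and 5.48 in bipolar-like clusters 0 and 4 and 1.90 to 3.18 elsewhere. In the Ikzf1/4 library it had 5.21 and 5.43 in those clusters and 1.72 to 3.70 elsewhere. The bipolar-like intervals overlapped those of amacrine-like cells (1.89 to 4.31) in the control and of rod-like (2.88 to 4.68) and microglia-like cells (1.32 to 5.06) with Ikzf1/4. Bipolar-like cells exceeded the rest 1.76-fold (1.51 to 2.07) and 1.91-fold (1.59 to 2.30) for Tle6, above 97.3% and 97.0% of windows. For Tle2 the excess was 2.06-fold (1.59 to 2.66) and 2.56-fold (1.963 to 3.33), above 98.6% and 99.1% of windows. These windows all had more fragments than that of Tle2. Tle2 had control levels of 1.29 and 1.22 in bipolar-like clusters 0 and 4 and 0.43 to 0.58 in Muller glia-like ones. The interval of control cluster 0 (1.04 to 1.57) overlapped those of microglia-like (1.02) and amacrine-like (0.99) cells, and that of cluster 4 (0.74 to 1.88) those of every other cluster but the rod-like one. With Ikzf1/4 it had 1.82 and 2.14 in bipolar-like clusters and 0.32 to 0.40 in Muller glia-like ones, and rod-like cells (1.33, 0.94 to 1.83) and microglia-like cells (0.72, 0.20 to 1.84) overlapped them. Barcodes with fewer than 500 fragments, too shallow to be cells here, gave Tle2 levels of 0.60 in the control and 0.81 with Ikzf1/4. The bipolar-like levels of Tle2 lay above these and the Muller glia-like ones below. Cone-like cells had 0.65 and 0.67. The windows of both genes share the overlap of the genes and its flanks. Without that stretch control Tle2 had 22.2 and 22.6 CPM in bipolar-like clusters 0 and 4 and 22.3 CPM in microglia-like cells. With Ikzf1/4 it had 34.7 and 40.2 CPM in those clusters, and 24.5 CPM in rod-like cells. Within 500 bp of the Tle2 start, control bipolar-like cells had 6.47 CPM (4.26 to 9.41) and amacrine-like cells 8.34 (2.71 to 19.5). With Ikzf1/4 bipolar-like cells had 8.2 CPM (5.26 to 12.2) there and cone-like cells 7.96 (4.24 to 13.6). Over the 17 points the r of Tle2 and Tle6 was 0.64.

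**Figure D2:**
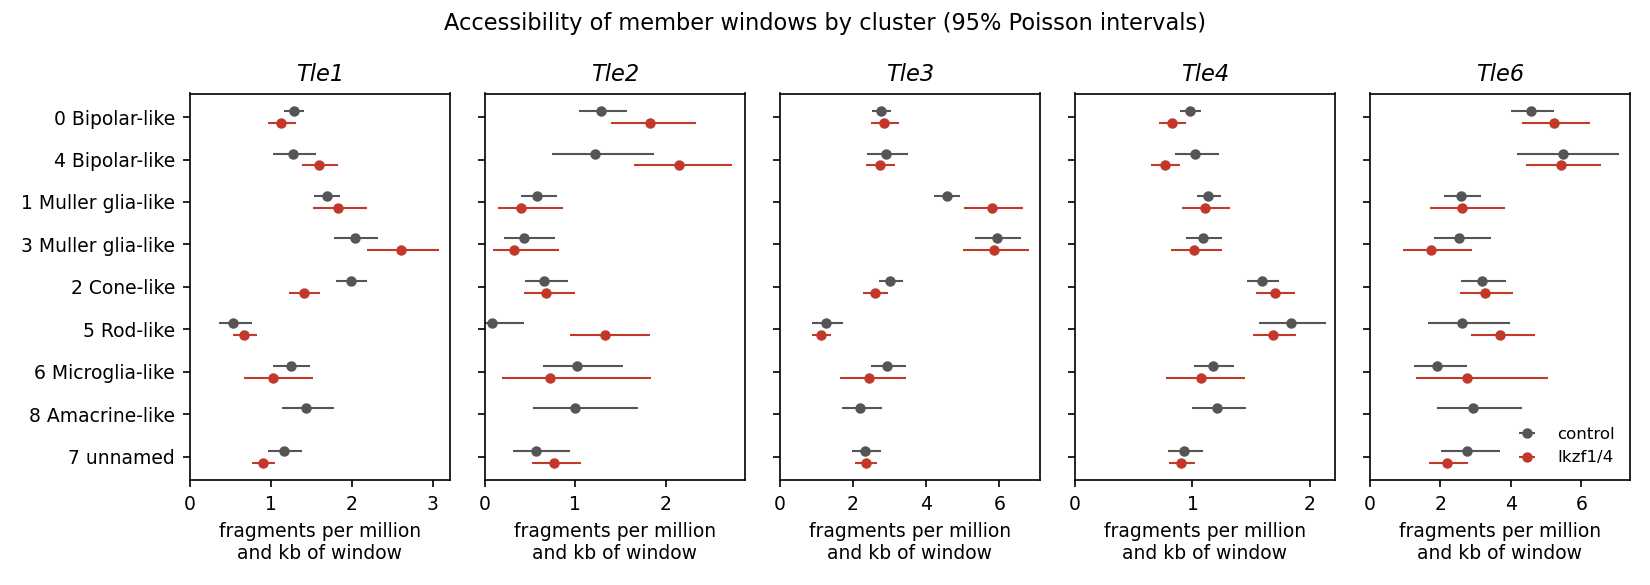
CPM per kb of window for the 5 members in each cluster, control in grey and Ikzf1/4 in red; points are levels and bars 95% Poisson intervals, and amacrine-like cells of the Ikzf1/4 library (1 cell) are left out. Tle3 is highest in Muller glia-like clusters (4.56 to 5.94), Tle4 in rod-like and cone-like cells, and Tle6 in bipolar-like clusters (4.59 to 5.48).

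The starts of Tle6 differed in how far bipolar-like cells exceeded the others, a comparison chosen after the values were seen. Within 500 bp of the upstream start, bipolar-like cells of the control had 31.4 CPM (26.2 to 37.3), Muller glia-like 27.9 (22.9 to 33.6), cone-like 30.7 (23.9 to 38.9) and rod-like 25.5 (14.3 to 42.1). These 4 intervals overlapped, while the unnamed cluster 7 lay lower, at 16.6 (10.0 to 26.0) in the control and 15.1 (10.3 to 21.5) with Ikzf1/4, below the bipolar-like interval. Control microglia-like cells had 16.5 (9.61 to 26.4). Within 500 bp of the downstream start, bipolar-like cells had 11.02 CPM (8.07 to 14.7) and cone-like cells 2.67 (0.98 to 5.81). Muller glia-like cells had 0.76 (0.16 to 2.22) there from 3 fragments, and rod-like cells had 0 fragments, where 3 fragments would be 5.11 CPM and the exact interval reaches 6.28.

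In the Ikzf1/4 library bipolar-like cells again had the highest level at the downstream start, and the order of the other classes is not defined at these counts. There bipolar-like cells had 14.4 CPM (10.4 to 19.4), cone-like 3.67 (1.35 to 7.99), Muller glia-like 3.17 (0.86 to 8.11) and rod-like 1.53 (0.19 to 5.53). At the upstream start they had 32.8, 33.7, 22.2 and 35.2 CPM. Both bipolar-like clusters showed the downstream signal, with 10.5 and 13.3 CPM in the control and 10.9 and 18.3 CPM in the Ikzf1/4 library.

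Set against all other cells, the downstream start of Tle6 was 7.02-fold (3.85 to 13.5) more accessible in bipolar-like cells of the control, from 46 fragments against 15. In the Ikzf1/4 library it was 4.26-fold (2.49 to 7.49), from 42 fragments against 22. Within 250 bp it was 6.86-fold (2.81 to 19.1) in the control and 2.53-fold (1.19 to 5.44) in the Ikzf1/4 library, and within 1000 bp 5.98-fold and 4.09-fold. The upstream start gave 1.22-fold (0.98 to 1.51) and 1.30-fold (0.998 to 1.68). Within 1000 bp of it the ratio was 1.185 (0.95 to 1.47) in the control. In the Ikzf1/4 library it was 1.33 (1.03 to 1.72), an interval that left out 1. Among 15075 start sites with at least 20 fragments in the control the median ratio was 1.04, and 99.4% had a lower ratio than the downstream Tle6 start, against 72.2% for the upstream one. With Ikzf1/4, over 13868 start sites, these shares were 98.0% and 78.2%. These ratios cover more than the printed promoters, and a link of CpG content to accessibility was not tested. Of the starts whose promoters are printed above, the downstream one thus had the larger bipolar-like ratio. Single classes were not all clear of it: the bipolar-like interval at the downstream start overlapped those of cluster 7 (0.95 to 8.97) and amacrine-like cells (0.04 to 9.30) in the control, and of microglia-like cells (0.10 to 21.9) with Ikzf1/4. Only a part of the window's excess lay there. Over the whole Tle6 window bipolar-like cells of the control had 67.8 CPM and other cells 38.4, a difference of 29.4. Of that difference 32.2% lay within 500 bp of the downstream start, 46.2% within 1000 bp of it and 19.2% within 500 bp of the upstream start. With Ikzf1/4 the shares were 30.4%, 39.2% and 20.8%. The signal was broader than the promoter: in 100 bp steps it reached its highest control value, 5.27 fragment ends per 1000000 fragments, 3150 bp after the upstream start, which is before the downstream one. The lncRNA Gm32024 spans the same stretch, so the signal cannot be given to 1 of the genes.

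**Figure D3:**
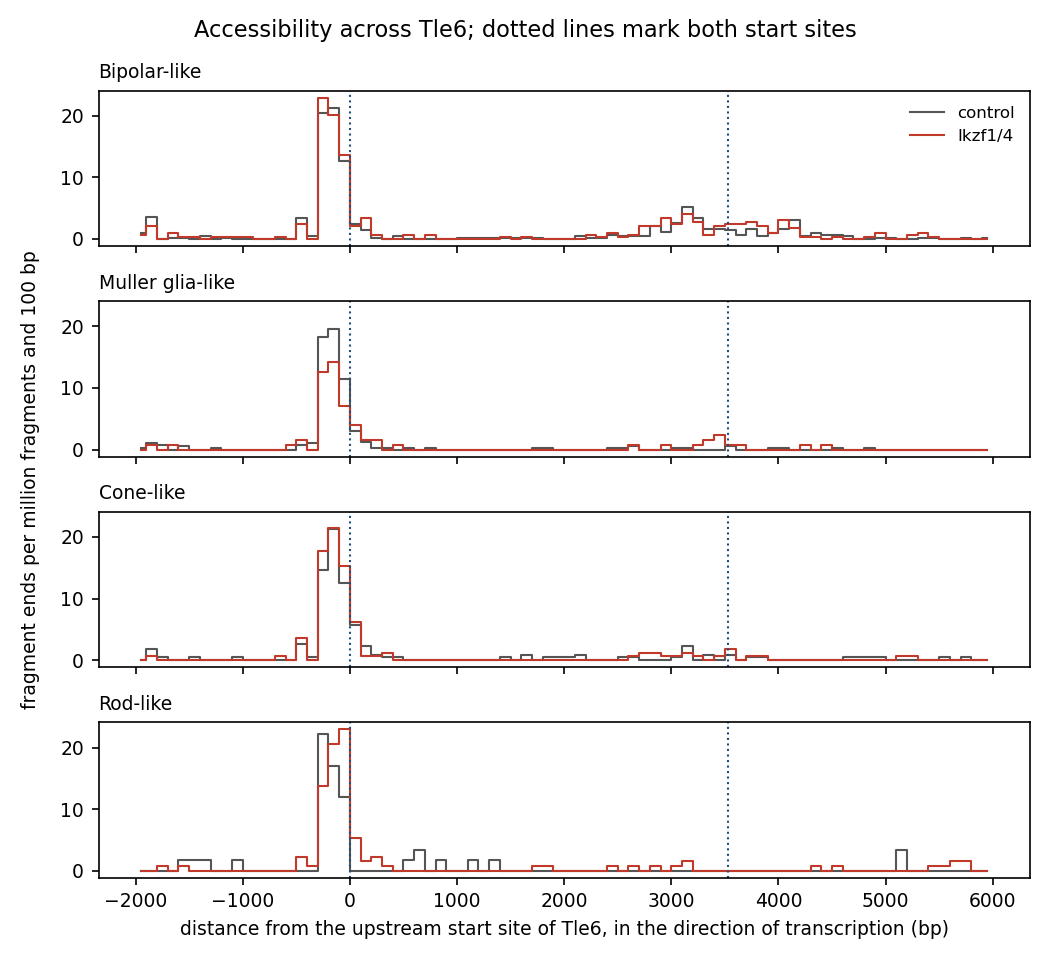
Fragment ends per 1000000 fragments in 100 bp steps across Tle6 in 4 classes of cells, control in grey and Ikzf1/4 in red, against the distance in bp from the upstream start; dotted lines mark the starts, 3533 bp apart. All 4 classes have the peak at the upstream start, and bipolar-like cells also have a lower, broad signal around the downstream start, where they reach 5.27 in the control.

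Between the multiome libraries Tle2 stood higher and Tle1 and Tle3 lower with Ikzf1/4 when all cells were pooled, within the spread of other windows. Over all cells the ratio of Ikzf1/4 to control was 0.84 (0.78 to 0.91) for Tle1, 1.40 (1.16 to 1.68) for Tle2, 0.85 (0.79 to 0.91) for Tle3, 0.97 (0.91 to 1.03) for Tle4 and 1.07 (0.95 to 1.21) for Tle6. The median of 11286 windows was 1.07, with the middle 95% between 0.75 and 1.41. Tle2 was above 97.2% of windows, Tle1 above 7.44% and Tle3 above 7.87%. Tle2 itself had too few fragments to be among them. Tle6, the member with the largest fall in fibroblast RNA, was at the median of windows. That fall was measured in another assay, in other cells that also received Brn2 and Myt1l, so these values are not comparable. The neighbouring family gene Tle5 was at 1.31 (1.13 to 1.51). Only Tle2 was past 1.25-fold, as were 16.8% of windows in either direction and 12.1% in the higher one. A share of 1 in 5 members is near that background, to which Tle2 has too few fragments to belong. With cluster shares held at those of the control, a setting added after the data were seen, 0 members were past it. Tle2 was then at 1.245, just under the 1.25 cut. Tle1 went from 0.84 to 0.95, outside its interval over all cells, and Tle3 from 0.85 to 1.04. With cells of at least 10000 fragments Tle2 stood at 1.07 (0.85 to 1.34), an interval that held 1.

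**Figure D4:**
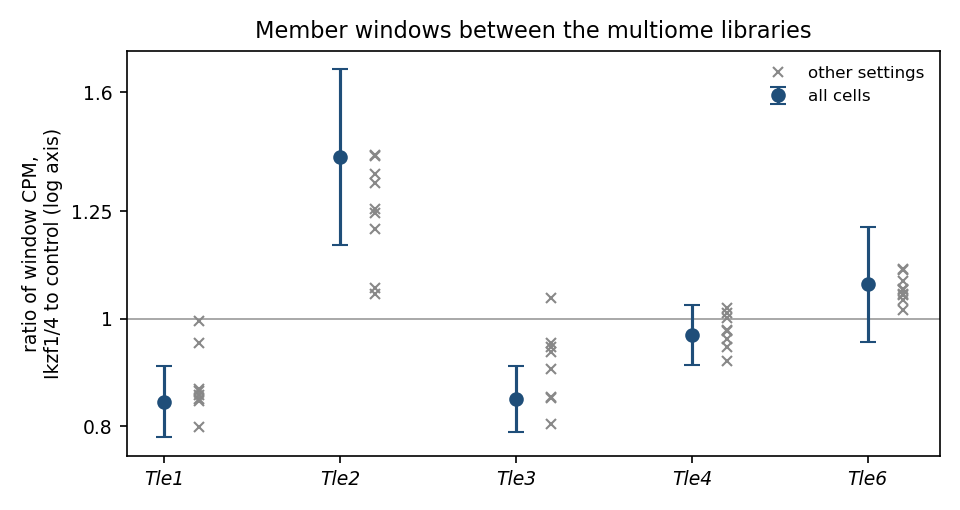
Ratio of window CPM, Ikzf1/4 library over control, for each member on a log axis; blue points with bars are all cells with 95% intervals for counting error, and grey crosses the other settings tried. Tle2 (1.40) is the highest and Tle1 (0.84) the lowest, and the crosses of Tle2 reach down to 1.05.

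Within the 8 clusters that both libraries filled, 9 of 40 member and cluster pairs had an interval that left out 1, against 15.6% of 90288 pairs of windows and clusters. Tle2, with fewer fragments than the windows behind that share, gave 3 of the 9. Tle6 had none of the 9. Its ratio was 1.14 (0.90 to 1.43) and 0.99 (0.71 to 1.39) in bipolar-like clusters 0 and 4. Tle1 was at 0.71 (0.60 to 0.83) in cone-like cells, at 0.78 in the unnamed cluster 7 and at 1.28 (1.03 to 1.58) in cluster 3. Tle3 was at 1.27 (1.08 to 1.49) in cluster 1 and 0.98 (0.81 to 1.19) in cluster 3, both Muller glia-like. Tle4 was at 0.84 and 0.75 in bipolar-like clusters 0 and 4. Tle2 was higher with Ikzf1/4 in both bipolar-like clusters, at 1.42 (1.01 to 1.97) and 1.76 (1.05 to 3.08).

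The largest difference was that of Tle2 in rod-like cells, which was picked after its values were seen. The control gave 1 fragment over the Tle2 window in 96 rod-like cells (1.70 CPM), and the Ikzf1/4 library 38 fragments in 24 of 130 cells (29.1 CPM). The ratio was 17.1 (2.88 to 692 by counting error), and its size rests on the single control fragment, where 3 fragments would be 5.11 CPM. In the Ikzf1/4 library 1 cell held 9 of the fragments, and without it the ratio was 13.3 (2.20 to 542). Without the stretch shared with Tle6 the fragments were 1 and 32. The rod marker list in these cells had a ratio of 1.01 (0.95 to 1.08), the bipolar list 0.96 (0.84 to 1.10) and the other 4 lists between 0.89 and 1.27, with intervals that held 1. Barcodes with fewer than 500 fragments (too shallow to be cells here) gave 13.2 CPM over Tle2 in the control and 17.6 CPM in the Ikzf1/4 library, so the control rod-like cells lay below and the Ikzf1/4 ones above that level. Within 500 bp of the Tle2 start there were 1 and 9 fragments. With cells of at least 10000 fragments only, the ratio was 3.50 (0.58 to 143), whose interval held 1.

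The windows most like each member over the 17 points, outside 1 Mb, were chosen by the highest Pearson r and say nothing of shared function. For Tle3 they were Ctdspl (0.91) and Adgrl2 (0.91), and for Tle1, after Tle3, Chst2 (0.85). For Tle4 they were Srl (0.91) and Uap1 (0.90), for Tle2 Capn5 (0.83) and Plcxd1 (0.79), and for Tle6 Chtf18 (0.93) and Fcho1 (0.91). The points share libraries and depth, so these values only describe a likeness of profiles.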

How the data were processed

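The members and gene lists were chosen with earlier results of these data known. Fibroblast values come from the authors' deposited table of gene comparisons, made with DESeq2 after Salmon per the submitters' processing notes, with a mean normalised signal per gene, log2 fold changes, standard errors, Wald scores (fold change over its error, not used) and adjusted p-values as the authors deposited them. No source used here says whether they were shrunk. Implied levels per group were computed from the mean signal and the fold change for equal groups. The RNA libraries held 34966344 to 44270426 estimated counts deposited by the authors, and their transcripts were not used for members, since they were not paired with genes. Fibroblast ATAC peaks were not analysed here, since no gene positions of their build were at hand. Where nothing says that replicates came from separate cultures, adjusted p-values measure only the spread between these samples.

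Multiome fragments were made by cellranger-arc 2.0.1 against mm10, per the file headers. The control library held 52119123 and the Ikzf1/4 library 29358834 unique fragments, with read-pair counts per fragment deposited by the authors. Cells had at least 3000 fragments and a start-site enrichment of at least 4, without the top 1% by depth, and no doublet caller was run. Fragments overlapping each window were summed. Nuclei were clustered on 16889 windows (TF-IDF, 30 components less 2 that followed depth, 15 neighbours, Leiden at resolution 0.8, leidenalg 0.10.2). Intervals are exact Poisson or binomial (scipy 1.17.1). The calculations were tested on simulated data. Named genes were the members, Tle5, Tle7, called list genes with a mean of at least 50 and neighbours, with exceptions named for contrast. Tle7 was listed at 0 in the authors' deposited table. A listed partner gene is not reported here.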

Additional observations from a re-analysis of the deposited data

How the results depend on the processing

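No paired analysis was possible with the values used, because the members' fibroblast values come only from the authors' deposited table. It gives no values of single libraries, and each multiome group has 1 library. The fibroblast RNA libraries carry the same replicate numbers in both groups. Their transcripts were not paired with genes, so a fit that pairs libraries by these numbers was not run. The planned transcript fits (DESeq2, limma-voom, no filter, leaving out each library, the block, gene sums) and the settings for fibroblast peaks were not run. By the authors' deposited table, a single member (count 1) passed with an absolute log2 fold change over 1 as well, and 4 with an adjusted p under 0.01. The count of members past 1.25-fold between multiome libraries was 1, and became 0 with a minimum of 10000 fragments, with 1 kb around start sites, with all barcodes or with cluster shares held at the control, and 2 when scaled to fragments in gene windows. With held cluster shares Tle2 was at 1.245, just under the cut. Ratios over these settings ran from 0.80 to 0.995 for Tle1, 1.05 to 1.40 for Tle2, 0.80 to 1.04 for Tle3, 0.92 to 1.02 for Tle4 and 1.02 to 1.11 for Tle6, and the Tle3 value above 1 (1.04) came from held cluster shares.

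Of the class comparisons, cells with at least 10000 fragments gave 2.12 for Tle3 in Muller glia-like cells (Ikzf1/4), 0.52 for Tle1 (control) and 0.52 for Tle3 (Ikzf1/4) in rod-like cells, 1.99 for Tle4 in rod-like and 0.88 in bipolar-like cells (control). The gene body alone gave 2.48 for Tle3 in Muller glia-like cells, 1.88 for Tle4 in cone-like and 0.60 in bipolar-like cells (control) and 0.51 in bipolar-like cells (Ikzf1/4). Scaling to gene windows gave 1.39 for Tle4 in rod-like (Ikzf1/4) and 1.31 in cone-like cells (control). At 10000 fragments the intervals of 4 control values reached past 1: Tle1 in rod-like (1.07), Tle4 in bipolar-like (1.06), and Tle6 (1.13) and Tle2 (1.12) in Muller glia-like cells. The directions of these class comparisons were kept; the cause was not tested.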
